A study of Mus musculus with 12 samples.

Results

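Eph receptors and ephrins were followed through 4 dissected structures of the embryonic mouse kidney. Of 9 genes named (Efna1, Efnb1, Efnb2, Epha2, Epha4, Epha7, Ephb2, Ephb3 and Ephb4), the members were those with a probe set on the array annotated to their symbol and no other. That held for 7 genes with 9 probe sets, of 8251 genes and 12422 probe sets in all. Ephb2 and Ephb4 had no such probe set and are not analysed here. All tissue came from wild-type Swiss Webster embryos at E14.5, and each of the 12 arrays (Affymetrix MG_U74Av2) carried RNA amplified over 2 rounds. Single S-shaped bodies, 1 structure per array, made up the first group of 3 arrays. S-shaped bodies, the stage at which the future glomerulus and tubule become distinct, were also taken as pools of 20, again on 3 arrays. Renal vesicles, the first epithelial ball of the nephron, were pooled in the same number on 3 arrays, and collecting duct, which grows from the ureteric bud, was unpooled on 3 arrays and serves as the study's reference. Nothing in the labels says which samples came from separate embryos, so p-values here measure only the spread between these samples.

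Eph receptors are the largest family of receptor tyrosine kinases, and their ligands, the ephrins, stay attached to the membrane of the neighbouring cell. A-type ephrins hang on a lipid anchor and bind mainly EphA receptors, whereas B-type ephrins cross the membrane and bind mainly EphB receptors, with EphA4 accepting both types. Contact signals into both cells: forward through the receptor kinase, and in reverse through the ephrin, commonly moving the cells apart or changing their adhesion. The pathway is known for axon guidance, for boundaries between tissues and for blood vessels, where ephrin-B2 marks arteries and EphB4 marks veins.

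All 9 gene names matched promoter windows of 300 bases from RefSeq (build GRCm38.p6), which run from 250 bases before to 50 bases after the annotated start, and the 9 genes had 11 windows. The 4 below are shown because the calls of their genes in renal vesicles against collecting duct held in every alternative setting that tested them. Efna1 fell under the alternative filter at the 50th percentile and was not tested there. Efnb1 and Epha7 were higher in renal vesicles, and Ephb3 and Efna1 were lower. They lie at chrX:99135811-99136110 on the plus strand (Efnb1), chr4:28812881-28813180 on the plus strand (Epha7), chr16:21204545-21204844 on the plus strand (Ephb3) and chr3:89280902-89281201 on the minus strand (Efna1). Capitals mark every match, on either strand, to CTTTGA (the core bound by TCF/LEF factors), TGGGAA (the core bound by RBPJ, the Notch pathway factor) or GGGCGG (the GC box bound by Sp1).
Efnb1: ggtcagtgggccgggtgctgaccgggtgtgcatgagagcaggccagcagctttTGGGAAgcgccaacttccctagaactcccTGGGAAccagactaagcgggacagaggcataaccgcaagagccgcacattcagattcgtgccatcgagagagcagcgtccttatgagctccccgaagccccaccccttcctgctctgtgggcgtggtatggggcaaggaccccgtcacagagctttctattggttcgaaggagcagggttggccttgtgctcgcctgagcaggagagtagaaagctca
Epha7: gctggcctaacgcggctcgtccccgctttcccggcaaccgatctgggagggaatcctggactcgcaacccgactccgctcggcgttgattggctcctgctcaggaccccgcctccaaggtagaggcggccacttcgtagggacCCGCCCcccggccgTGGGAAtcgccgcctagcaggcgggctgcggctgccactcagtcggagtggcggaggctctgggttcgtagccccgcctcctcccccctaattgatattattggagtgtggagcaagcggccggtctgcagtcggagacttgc
Ephb3: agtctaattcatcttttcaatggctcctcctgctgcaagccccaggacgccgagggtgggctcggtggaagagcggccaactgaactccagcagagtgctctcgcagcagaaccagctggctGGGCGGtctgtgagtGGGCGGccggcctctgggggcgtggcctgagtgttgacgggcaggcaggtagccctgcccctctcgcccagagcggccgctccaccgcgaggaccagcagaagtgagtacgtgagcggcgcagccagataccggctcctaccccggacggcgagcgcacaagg
Efna1: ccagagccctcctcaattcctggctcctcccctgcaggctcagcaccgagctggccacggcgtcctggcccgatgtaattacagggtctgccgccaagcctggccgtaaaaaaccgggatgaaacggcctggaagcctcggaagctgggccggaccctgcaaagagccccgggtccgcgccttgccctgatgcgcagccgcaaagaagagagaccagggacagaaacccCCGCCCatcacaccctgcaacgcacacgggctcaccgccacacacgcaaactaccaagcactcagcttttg
Matches of different motifs did not overlap. The Efnb1 window held 2 copies of TGGGAA and 0 of GGGCGG. Epha7 held 1 copy of each of these, Ephb3 held 2 copies of GGGCGG and this Efna1 window 1. CTTTGA was in none of these 4 windows. Across the 32851 windows of the same table, 25.6% held TGGGAA, 35.7% GGGCGG and 16.0% CTTTGA, so each motif is common. GC content was 59.7% for Efnb1, 67.0% for Epha7, 66.7% for Ephb3 and 63.7% for Efna1, against a median of 52.7% over all windows. A match is a run of letters in the window and was not tested for binding.

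Levels below are quantile-normalized log2 signals, on the log2(value + 7.22) scale, and "above background" means that the deposited signal exceeded the array's own noise level. Mean deposited intensity ran from 21.4 on the faintest array, a single S-shaped body, to 363 on the brightest, a collecting duct, and 48.3% to 59.7% of probe sets per array lay above background. The list of 16 ureteric bud and collecting duct genes averaged 7.47 to 7.54 in collecting duct, against 4.26 to 4.75 in single S-shaped bodies, 4.39 to 5.02 in pooled S-shaped bodies and 4.07 to 5.28 in renal vesicles, with renal vesicle replicate 3 the highest of its group. The 12 genes of the list named nephron epithelium were Wt1, Pax8, Pax2, Lhx1, Wnt4, Six2, Dll1, Hes5, Fgf8, Ccnd1, Bmp2 and Cdh6. They averaged 6.51 to 6.68 in renal vesicles, against 4.69 to 4.79 in collecting duct. In single and pooled S-shaped bodies they averaged 4.88 to 5.25 and 4.998 to 5.06, where 4 and 6 of the 12 were above background on 0 arrays. Podocyte precursor genes (8) averaged 8.93 to 9.65 in single and 9.10 to 9.24 in pooled S-shaped bodies, 6.76 to 8.81 in renal vesicles and 4.78 to 5.07 in collecting duct. Markers of other cells differed too. The 13 endothelial genes averaged 7.69 to 8.17 in single S-shaped bodies, 7.85 to 8.33 in pooled S-shaped bodies, 5.01 to 5.63 in renal vesicles and 3.77 to 3.95 in collecting duct, where 10 of the 13 were above background on 0 arrays. The 13 stromal genes averaged 7.06 to 7.34, 6.96 to 7.18, 4.64 to 6.32 and 3.22 to 3.39 in the same 4 groups, with 11 of the 13 above background on 0 collecting duct arrays. In such tissue samples, fewer cells of a type and less RNA per cell cannot be told apart.

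**Figure D1:**
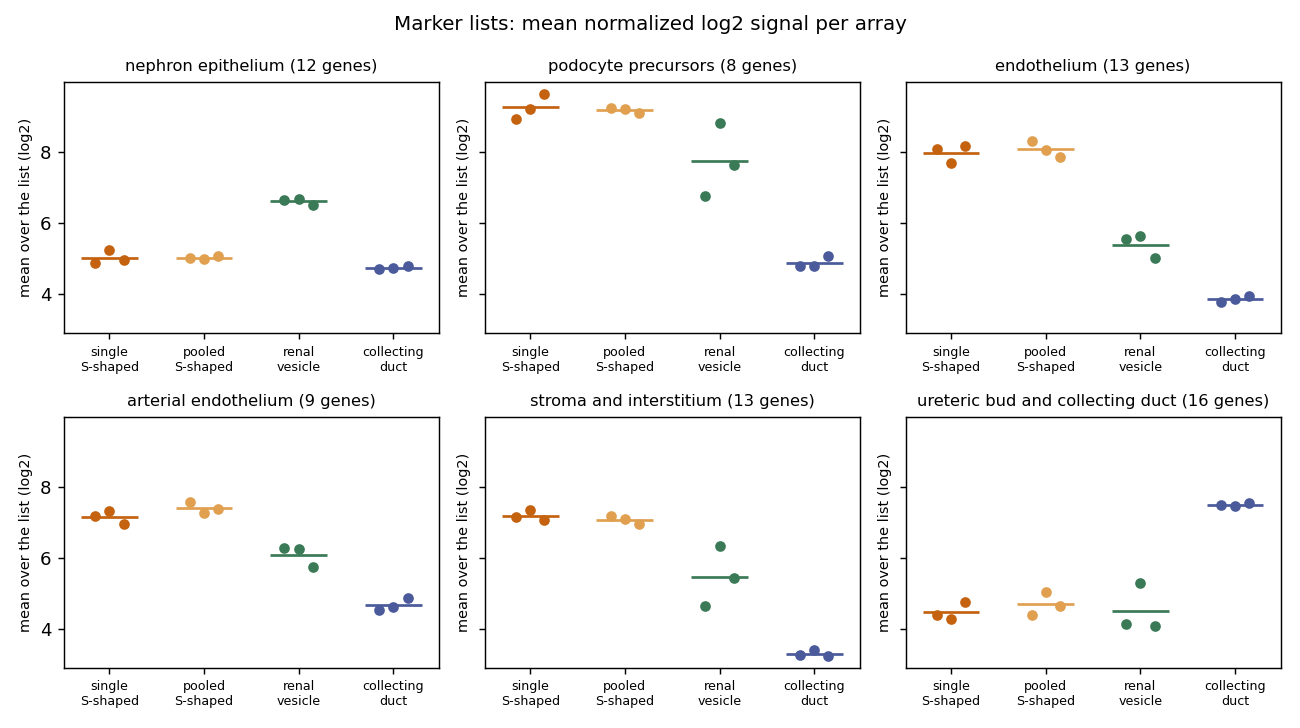
Mean normalized log2 signal of 6 marker lists (y axis) on each array (points), by structure (x axis), with the group mean as a line. Endothelial and stromal lists are highest in single and pooled S-shaped bodies and lowest in collecting duct, and the ureteric bud and collecting duct list is highest in collecting duct.

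Among the member genes, 2 B-type genes showed the widest opposite patterns. Efnb1, a B-type ligand, was under background in collecting duct and lay between 9.32 and 10.27 in S-shaped bodies, while Ephb3, a B-type receptor, was brightest in collecting duct. Epha7 was above background on all 3 arrays in renal vesicles only, Efna1 in collecting duct only, and Efnb2 was above background on all 12 arrays. Each gene was tested with limma over all 9316 probe sets that passed a filter on mean signal, and called at a Benjamini-Hochberg adjusted p under 0.05. Of the 7 members, 6 passed that filter in the fit of pooled S-shaped bodies, renal vesicles and collecting duct. In renal vesicles against collecting duct, 5 of the 6 were called, 3 higher (Efnb1, Epha4 and Epha7) and 2 lower (Efna1 and Ephb3), where 23.8% of all tested probe sets were called, 12.2% higher and 11.5% lower. For pooled S-shaped bodies against collecting duct the calls numbered 3, Efnb1 higher and Efna1 and Ephb3 lower, against 38.5% of all probe sets, 18.4% higher and 20.1% lower. In pooled S-shaped bodies against renal vesicles, 3 were called, Efnb1 and Efnb2 higher and Epha7 lower, against 36.7%, 17.6% higher and 19.2% lower. Median log2 changes of the 6 members in these comparisons were 0.37, 0.25 and 0.23, against -0.02, -0.07 and -0.03 over all probe sets, and 0.36, 0.25 and 0.23 with genes under background taken at their bound. These counts and medians describe 6 probe sets.

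**Figure D2:**
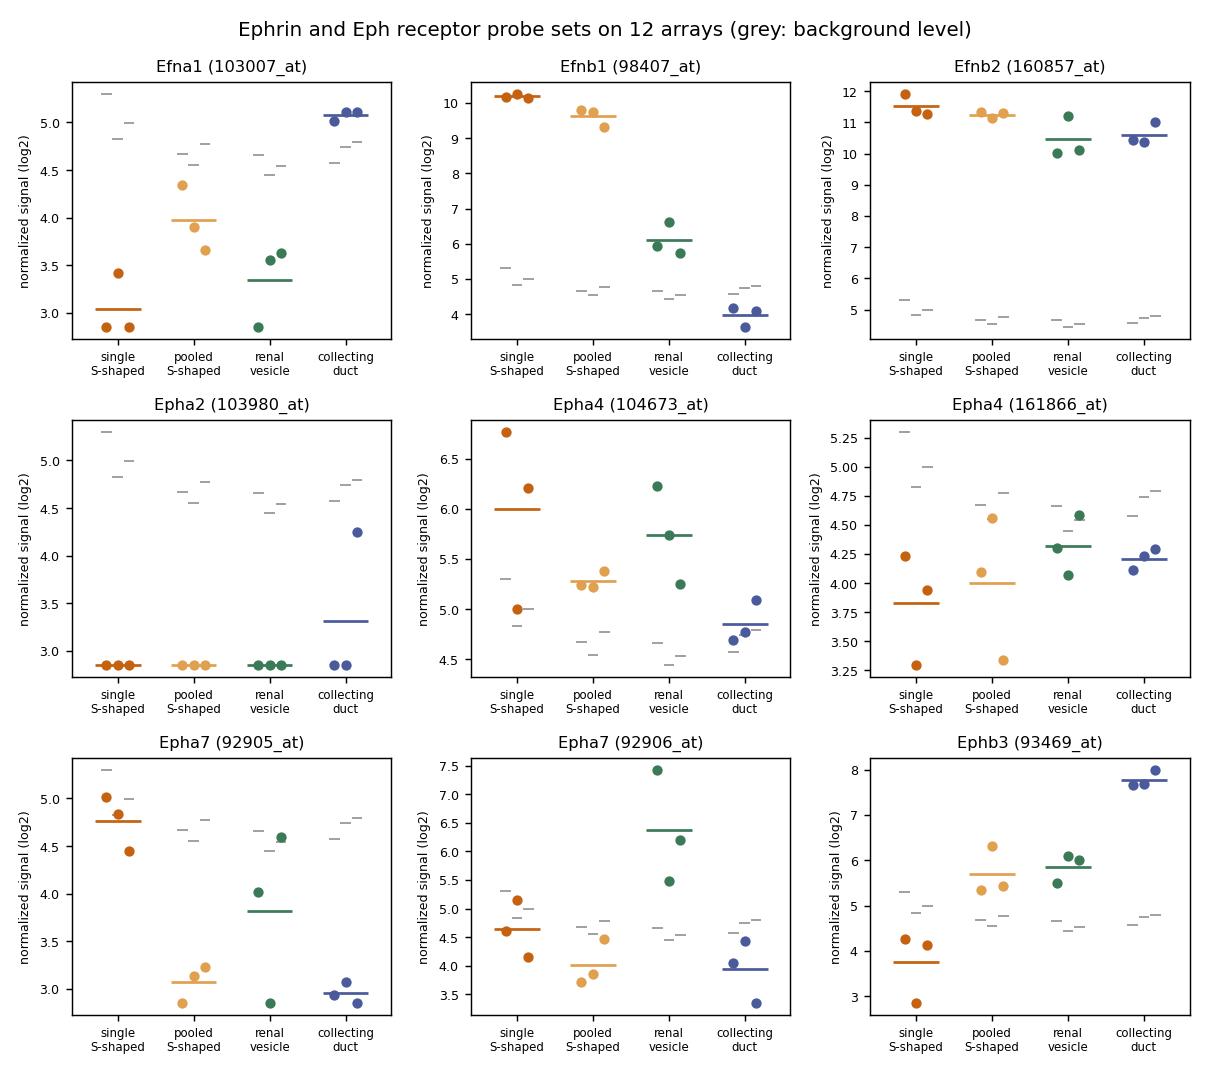
Normalized log2 signal (y axis) of the members on each array by structure (x axis); points are arrays, lines group means and grey marks each array's background level, and each of the 9 panels (1 per probe set) has its own scale. Efnb1 lies between 9.32 and 10.27 in single and pooled S-shaped bodies and at or below 4.18 in collecting duct, Ephb3 is highest in collecting duct, and Efnb2 stays between 10.03 and 11.92 throughout.

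Efnb1 encodes ephrin-B1, the transmembrane ligand whose loss causes craniofrontonasal syndrome in humans. Its signal was 10.18, 10.27 and 10.13 in the 3 single S-shaped bodies and 9.80, 9.74 and 9.32 in the pools of S-shaped bodies. In renal vesicles it was 5.95, 6.62 and 5.74, against 4.18, 3.64 and 4.09 in collecting duct. The 4 groups did not overlap, and the order of their means was single S-shaped body, pooled S-shaped body, renal vesicle, collecting duct. Efnb1 was above background on all 9 nephron arrays and on 0 of 3 collecting duct arrays, so its difference from collecting duct is a lower bound, set against the background level. It was at least 30.2-fold higher in pooled S-shaped bodies (limma adjusted p = 1.12e-07) and at least 2.64-fold higher in renal vesicles (limma adjusted p = 2.18e-04) than in collecting duct. Between the nephron stages, pooled S-shaped bodies exceeded renal vesicles by a log2 change of 3.52 ± 0.27 (SE; 95% interval 2.93 to 4.11; limma adjusted p = 8.33e-06). These calls held in all 19 alternative settings, although the fitted log2 change in renal vesicles against collecting duct ran from 0.94 to 2.51 over them. Signal of the endothelial list also fell from S-shaped bodies to renal vesicles to collecting duct. For that list, single (7.69 to 8.17) and pooled S-shaped bodies (7.85 to 8.33) overlapped. The Efnb1 difference between single and pooled S-shaped bodies was not called (limma adjusted p = 0.139). Of its 13 genes, 11 were called higher in pooled S-shaped bodies than in renal vesicles and 0 lower. Of all tested probe sets, 17.6% were called higher and 19.2% lower in that comparison. The 8 podocyte genes, 7 of them tested, had 5 called higher and 0 lower. Of the 12 tested stromal genes 7 were higher and 0 lower, and of the 7 tested red blood cell and leukocyte genes 6 were higher and 0 lower. The 11 tested nephron epithelium genes had 0 higher and 7 lower, and the 14 of the ureteric bud and collecting duct list 3 and 1. The 9 arterial genes had 5 higher and 1 lower, and the 3 tested venous and lymphatic genes 1 and 1. The part of these lists in the Efnb1 result was not tested.

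Efnb2 encodes ephrin-B2, the B-type ligand of arterial endothelium. Its probe set lay at the 98.9 percentile of mean signal and was above background on all 12 arrays. Single S-shaped bodies gave 11.92, 11.37 and 11.28, and pooled S-shaped bodies 11.33, 11.13 and 11.29. Renal vesicles gave 10.03, 11.21 and 10.13, and collecting duct 10.43, 10.37 and 11.02. Pooled S-shaped bodies were higher than renal vesicles by 0.79 ± 0.28 (log2, SE; limma adjusted p = 0.0443), although renal vesicle replicate 3 lay within the range of the pools. Against collecting duct, the S-shaped pools did not overlap the ducts, at a log2 change of 0.64 ± 0.28 that missed the threshold (limma adjusted p = 0.0929; 95% interval 0.03 to 1.25). It was called in 4 of 19 alternative settings, with adjusted p values from 0.0161 to 0.0461. Renal vesicles and collecting duct overlapped, with a log2 change of -0.15 ± 0.28 (95% interval -0.76 to 0.46; limma adjusted p = 0.736), and under scaling to the 75th percentile it turned to 0.15. The call against renal vesicles was lost in 10 of 19 alternative settings, with adjusted p values from 0.0587 to 0.164; without renal vesicle replicate 3 the adjusted p was 8.46e-04. Renal vesicle replicate 3 also had the highest podocyte, stromal, endothelial, nephron epithelium and collecting duct marker levels of its group. The arterial endothelium list was instead highest in renal vesicle replicate 2 (6.29 against 6.24 in replicate 3). So were the venous and lymphatic endothelium list (4.915 against 4.788) and the red blood cell and leukocyte list (4.54 against 3.99). The part of these lists in the Efnb2 level of replicate 3 was not tested. Of the 9 arterial endothelium genes, 5 were called higher and 1 lower in pooled S-shaped bodies than in renal vesicles, and the list averaged 7.26 to 7.57 in the pools and 5.74 to 6.29 in renal vesicles. In collecting duct the list averaged 4.52 to 4.85, while Efnb2 lay between 10.37 and 11.02 there. Against collecting duct, 7 of the 9 were called higher and 0 lower in the pools, where Efnb2 was not called. The part of the arterial list in the Efnb2 signal was not tested.

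Efna1 encodes ephrin-A1, an anchored A-type ligand first found as a product induced in endothelial cells by inflammatory signals. Its signal was 5.02, 5.11 and 5.11 in collecting duct, all above background. Single S-shaped bodies gave 2.85, 3.42 and 2.85, the lowest being the floor of the scale. Pooled S-shaped bodies gave 4.34, 3.91 and 3.66, and renal vesicles 2.85, 3.55 and 3.63. All 9 nephron arrays were at or under background, and none reached the lowest collecting duct value. Efna1 was at least 1.45-fold lower in renal vesicles (limma adjusted p = 0.00246) and at least 1.33-fold lower in pooled S-shaped bodies (limma adjusted p = 0.0167) than in collecting duct. Without pooled S-shaped body replicate 3 the second of these had an adjusted p of 0.0596. Its probe set lay at the 31.6 percentile of mean signal, so the order among the 3 nephron groups, all under background, was not measured.

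Among the receptors, Ephb3 encodes EphB3, known in the mouse intestine for keeping crypt cells in place. Its signal was 7.67, 7.67 and 8.001 in collecting duct. Pooled S-shaped bodies gave 5.35, 6.32 and 5.42, and renal vesicles 5.50, 6.08 and 5.996. Both pooled nephron groups lay wholly below the ducts and overlapped each other. Against collecting duct, Ephb3 was lower in renal vesicles, at a log2 change of -1.92 ± 0.28 (95% interval -2.55 to -1.29; limma adjusted p = 6.97e-04) and in pooled S-shaped bodies, at -2.08 ± 0.28 (95% interval -2.71 to -1.45; limma adjusted p = 1.92e-04). Pooled S-shaped bodies and renal vesicles differed by -0.16 ± 0.28 (95% interval -0.79 to 0.47; limma adjusted p = 0.696). Both calls against collecting duct held in all 19 alternative settings. The ureteric bud and collecting duct list moved the same way, with 12 of its 14 tested genes called lower in renal vesicles and 1 higher, and 10 lower and 0 higher in pooled S-shaped bodies; its part in the Ephb3 result was not tested.

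Epha7 encodes EphA7, a receptor of A-type ephrins best known from the developing brain. In renal vesicles its brighter probe set gave 7.43, 5.48 and 6.20, all above background. Pooled S-shaped bodies gave 3.72, 3.86 and 4.47, and collecting duct 4.04, 4.44 and 3.35, all under background. Single S-shaped bodies gave 4.60, 5.15 and 4.15, with 1 array above background. Each renal vesicle exceeded every array of the other 3 groups, and renal vesicle replicate 3 was the lowest of its group. Epha7 was at least 3.17-fold higher in renal vesicles than in collecting duct (limma adjusted p = 0.00395). It was at least 3.26-fold lower in pooled S-shaped bodies than in renal vesicles (limma adjusted p = 0.00286). Both calls held in all 19 alternative settings, and without renal vesicle replicate 3 their adjusted p values were 0.00164 and 0.00117. Pooled S-shaped bodies and collecting duct overlapped under background. A second Epha7 probe set was above background on 2 of 12 arrays, 1 single S-shaped body and 1 renal vesicle, and fell under the filter in this fit. The nephron epithelium list moved with Epha7, with 8 of 11 tested genes called higher in renal vesicles than in collecting duct and 0 lower, and 7 called lower and 0 higher in pooled S-shaped bodies than in renal vesicles; its part in the Epha7 result was not tested.

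Epha4 encodes EphA4, the receptor that binds ephrins of both types. Its brighter probe set was above background on all 12 arrays. Single S-shaped bodies gave 6.77, 5.005 and 6.21, and the pools 5.24, 5.22 and 5.38. Its signal was 6.23, 5.73 and 5.25 in renal vesicles, against 4.70, 4.77 and 5.09 in collecting duct. Renal vesicles lay above collecting duct on every array, by a log2 change of 0.88 ± 0.28 (95% interval 0.264 to 1.502; limma adjusted p = 0.0422). That call was lost in 11 of 19 alternative settings, with adjusted p values from 0.0539 to 0.200, and the change turned to -0.47 on the deposited scale, where the median of all probe sets was -1.39. The second Epha4 probe set, above background on 2 arrays, gave 0.11 ± 0.34 (log2, SE; limma adjusted p = 0.856) for the same comparison, so the probe sets disagree. Pooled S-shaped bodies differed from collecting duct by 0.43 ± 0.28 (log2, SE; limma adjusted p = 0.261) without overlap, and from renal vesicles by -0.45 ± 0.28 (log2, SE; limma adjusted p = 0.238) with overlap.

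Epha2 encodes EphA2, a receptor of ephrin-A1 in many epithelia. Its probe set lay at the 10.5 percentile of mean signal, under the filter, and was above background on 0 of 12 arrays. It stood at the floor of 2.85 on 11 arrays and at 4.25 on collecting duct replicate 3. No level can be given for Epha2 in any structure.

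**Figure D3:**
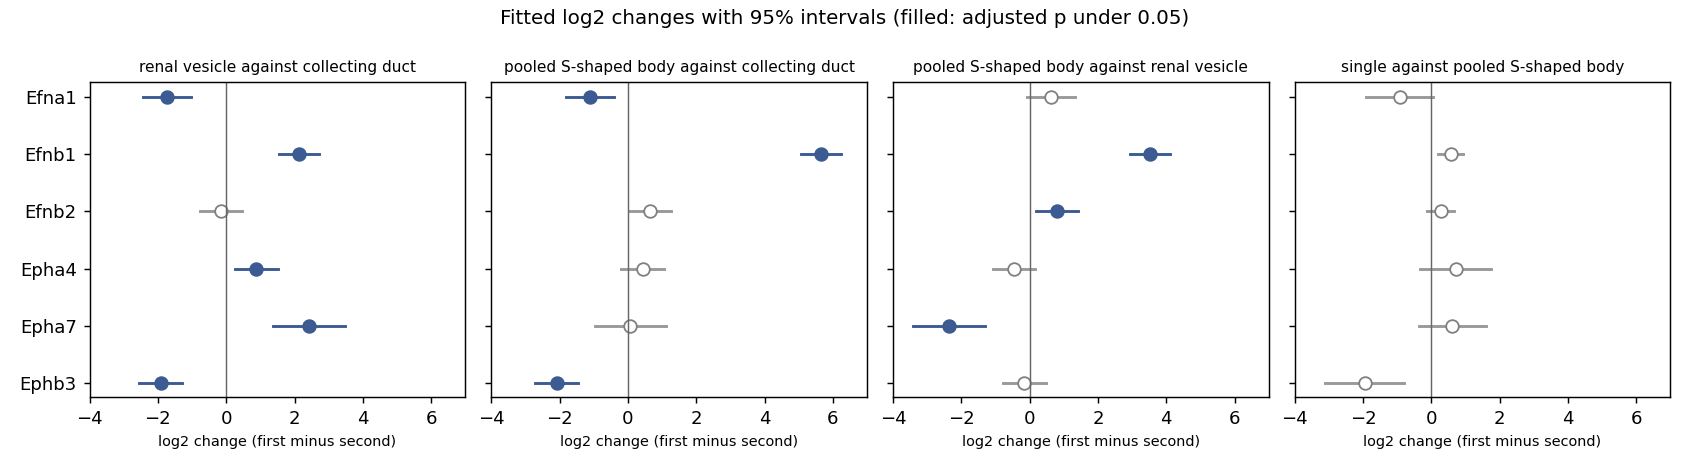
Log2 change (x axis) of each tested member with its 95% interval (bars) in 4 comparisons between structures; filled points passed an adjusted p of 0.05. Efnb1 lies above 0 and Ephb3 below 0 in both comparisons with collecting duct, and no member is filled in single against pooled S-shaped bodies; values of genes under background in 1 group are fitted changes, not bounds.

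S-shaped bodies amplified from 1 structure were set against the pools and against the other structures, each in a fit of 6 arrays. Against the pools, 0 of 6 tested members were called by limma, and 2 had an unadjusted p under 0.05 (Efnb1 and Ephb3), where 0.397% of all probe sets were called and 17.5% had an unadjusted p under 0.05. The second Epha7 probe set had an unadjusted p of 0.00225, without overlap (limma adjusted p = 0.0934), but passed this filter only through the single S-shaped bodies. Efnb1 was above the pools on all 3 arrays, by a log2 change of 0.57 ± 0.16 (95% interval 0.21 to 0.93; limma adjusted p = 0.139). Ephb3 was 4.26, 2.85 and 4.12 in single S-shaped bodies, under background on all 3 arrays and below every pool, at a bound of at least 1.57-fold (limma adjusted p = 0.118); with all 12 arrays in the fit its adjusted p was 0.0171. Against collecting duct, 4 of 6 members were called where 33.6% of all probe sets were. Efnb1 was at least 44.9-fold higher (limma adjusted p = 1.50e-06), and Efnb2 was higher by 0.92 ± 0.22 (log2, SE; limma adjusted p = 0.0137). Ephb3 was at least 6.67-fold lower (limma adjusted p = 2.30e-04). Efna1, the remaining gene of the 4, passed the filter of this fit only through its collecting duct signal and so had to differ; its bound was at least 1.03-fold lower. Epha7 was not called, at 0.69 ± 0.45 (log2, SE; limma adjusted p = 0.27). Its second probe set, above background on 1 of the 3 single S-shaped bodies, passed the filter only through that group and so had to differ; its bound was at least 1.05-fold higher. Epha4 was not called, at 1.14 ± 0.46 (log2, SE; limma adjusted p = 0.0949), with overlap. Against renal vesicles, 4 of 5 tested members were called where 27.0% of all probe sets were: Efnb1 and Efnb2 higher, by 4.09 ± 0.26 (limma adjusted p = 1.24e-04) and 1.07 ± 0.31 (limma adjusted p = 0.0309), and Epha7 and Ephb3 lower, at -1.73 ± 0.54 (limma adjusted p = 0.0408) and at a bound of at least 1.76-fold (limma adjusted p = 0.0123). Of the last 4 calls, Efnb1 held in all 18 alternative settings, Ephb3 was lost in 4 of 17, Efnb2 in 7 of 18 and Epha7 in 10 of 18; the Efnb2 call against collecting duct was lost in 4 of 17 and turned to -1.47 on the deposited scale, where the median of all probe sets was -2.56. The second Epha7 probe set went the other way against renal vesicles, at 0.94 ± 0.53 (log2, SE; limma adjusted p = 0.219), so the Epha7 probe sets disagree there. Comparisons of single and of pooled S-shaped bodies share the same collecting duct and renal vesicle arrays. Leaving out 1 array took the count of called members against renal vesicles down to 1, without renal vesicle replicate 4.

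Other Eph and ephrin genes were taken from a list of 13. Of these, 10 had a probe set with 1 symbol and 8 passed the filter. In renal vesicles against collecting duct 1 was called higher and 0 lower. Pooled S-shaped bodies had 0 higher and 2 lower against collecting duct, and 0 higher and 1 lower against renal vesicles. Of all tested probe sets, 23.8%, 38.5% and 36.7% were called in these comparisons. Median log2 changes of the 8 were -0.21, -0.21 and -0.11, against -0.02, -0.07 and -0.03 over all probe sets. Efna4, encoding the A-type ligand ephrin-A4, was called in all 3. Its signal was 7.69, 6.71 and 7.60 in renal vesicles, against 6.28, 6.71 and 6.12 in collecting duct, with 1 renal vesicle array and 1 duct array close to each other. Pooled S-shaped bodies gave 4.64, 4.63 and 4.66, and single ones 5.19, 5.21 and 3.74, all below both other groups. Efna4 was higher in renal vesicles than in collecting duct by 0.97 ± 0.28 (log2, SE; limma adjusted p = 0.03), and lower in pooled S-shaped bodies, at a log2 change of -2.69 ± 0.28 against renal vesicles (limma adjusted p = 5.1e-05) and of -1.73 ± 0.28 against collecting duct (limma adjusted p = 6.5e-04). The call of renal vesicles against collecting duct was lost in 7 of 18 alternative settings and turned to -0.55 on the deposited scale; the other Efna4 calls held in all 18. Efna4 was above background on all 3 arrays in both renal vesicles and collecting duct, but on only 1 pooled and 1 single S-shaped body array. Its changes in pooled S-shaped bodies therefore reach down to the background level. Ephb6, which encodes a receptor with an inactive kinase, was called lower in pooled S-shaped bodies than in collecting duct, at -0.77 ± 0.26 (log2, SE; limma adjusted p = 0.0394), a call lost in 8 of 17 alternative settings. Both its probe sets were above background on 1 pooled array, the first on 3 collecting duct arrays and the second on 0. The second gave 0.79 ± 0.77 (limma adjusted p = 0.456) and was too faint to bear on that call. The probe sets of Efnb3, the remaining B-type ligand, disagreed: the brighter gave 0.10 in renal vesicles against collecting duct (limma adjusted p = 0.78) and another 1.39 (limma adjusted p = 0.0026). In pooled S-shaped bodies against collecting duct they gave 0.12 (limma adjusted p = 0.724) and 0.72 (limma adjusted p = 0.044). The counts above use the brighter. Efna2, Efna3 and Epha8, above background on 7, 12 and 10 arrays, were called in none of the 3 comparisons. Epha3, Epha5, Epha6 and Efna5 were above background on 0 of 12 arrays. Epha5 and Epha6 still passed the filter, so the medians of the 8 include these undetected genes.

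**Figure D4:**
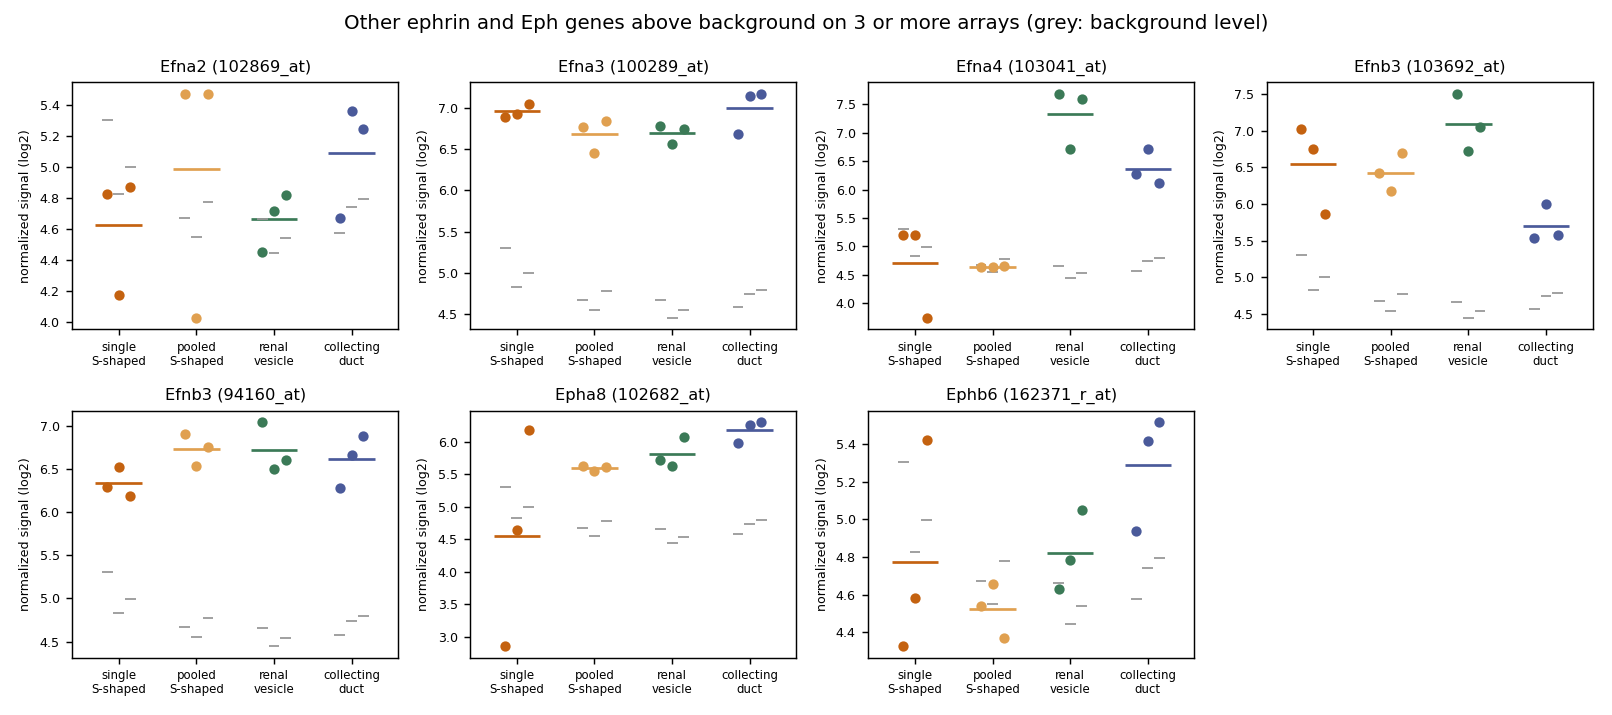
Normalized log2 signal (y axis, a scale of its own in each panel) of 7 probe sets of other Eph and ephrin genes on each array, by structure (x axis); points are arrays, lines group means and grey marks the background level of each array. Efna4 is highest in renal vesicles, where its arrays lie between 6.71 and 7.69, and stays near background in pooled S-shaped bodies, and the panels of the Efnb3 probe sets differ.

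Genes that act with Eph receptors and ephrins are given by list, beside 23.8%, 38.5% and 36.7% of all probe sets called in the 3 comparisons in the order below. Of the 15 tested adaptors and Src family kinases, 1 was called higher and 3 lower in renal vesicles than in collecting duct (median log2 change -0.03), 3 higher and 3 lower in pooled S-shaped bodies than in collecting duct (-0.29, or -0.08 with bounds), and 3 higher and 1 lower in pooled S-shaped bodies than in renal vesicles (-0.01). Fyn, a Src family kinase used in ephrin reverse signalling, was higher in pooled S-shaped bodies than in collecting duct by 2.92 ± 0.14 (log2, SE; limma adjusted p = 1.4e-07) and than in renal vesicles by 1.87 ± 0.14 (limma adjusted p = 8.6e-06). Vav2 is an exchange factor recruited to Eph receptors when they are taken up into the cell. It was lower than in collecting duct, at least 1.72-fold in pooled S-shaped bodies and at least 1.86-fold in renal vesicles. In that fit it passed the filter only through collecting duct and so had to differ. In single S-shaped bodies its mean normalized value before log2 was 48.7, against 41.8 in collecting duct and 0 in the pools.

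Ephrin-B partners numbered 12 tested genes, with 3 called higher and 2 lower in renal vesicles than in collecting duct, 5 and 1 in pooled S-shaped bodies than in collecting duct, and 4 and 1 in pooled S-shaped bodies than in renal vesicles (median log2 changes 0.01, -0.12 and 0.12, the last 0.08 with bounds). Reln, the secreted protein reelin, was at least 3.39-fold higher in pooled S-shaped bodies than in collecting duct (limma adjusted p = 1.93e-04). Sdcbp, the PDZ protein syntenin that binds the tail of B-type ephrins, was lower in renal vesicles than in collecting duct, at -1.59 ± 0.23 (log2, SE; limma adjusted p = 6.39e-04). Phosphatases and proteases that act on the family had 2 higher and 2 lower of 8 in renal vesicles against collecting duct, 4 and 3 in pooled S-shaped bodies against collecting duct, and 3 and 2 in pooled S-shaped bodies against renal vesicles (median log2 changes 0.40, 0.96 and 0.67, or 0.40, 0.31 and 0.38 with bounds). Ptpro, a receptor phosphatase that acts on Eph receptors and is also a podocyte gene, was at least 109-fold higher in pooled S-shaped bodies (limma adjusted p = 2.29e-05) and at least 18.2-fold higher in renal vesicles (limma adjusted p = 7.73e-04) than in collecting duct. Ptprf, the receptor phosphatase LAR, was lower than in collecting duct, at -3.80 ± 0.19 in pooled S-shaped bodies (log2, SE; limma adjusted p = 1.79e-07) and -2.11 ± 0.19 in renal vesicles (limma adjusted p = 1.86e-05).

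Other guidance families are read against the same shares, 23.8%, 38.5% and 36.7% of all probe sets. Of 17 tested semaphorin, plexin, neuropilin, netrin and Robo type genes, 5 were called higher and 2 lower in renal vesicles than in collecting duct, 6 and 5 in pooled S-shaped bodies than in collecting duct, and 5 and 2 in pooled S-shaped bodies than in renal vesicles (median log2 changes 0.00, 0.07 and -0.23). Nrp1, the semaphorin and VEGF co-receptor that also stands in the arterial list, was higher in pooled S-shaped bodies than in collecting duct by 6.46 ± 0.27 (log2, SE; limma adjusted p = 5.7e-08). Unc5c, a netrin receptor, was higher than in collecting duct by 3.52 ± 0.23 in pooled S-shaped bodies (log2, SE; limma adjusted p = 1.02e-06) and by 3.32 ± 0.23 in renal vesicles (limma adjusted p = 2.55e-06).

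Genes whose signal ran most like each member over the 12 arrays were sought among 6090 genes above background on at least 3 arrays; r is Pearson's and is a description, since the arrays fall into 4 groups that share tissue and scale. Efnb1 ran closest to Golim4 (r = 0.992), a Golgi membrane protein, and Emcn (r = 0.989), the endothelial sialomucin endomucin. Efnb2 ran closest to Ece1 (r = 0.976), the endothelin converting enzyme, and Pdlim7 (r = 0.948). Ephb3 ran closest to Rab11fip5 (r = 0.977), an effector of the recycling GTPase Rab11, and Unc13b (r = 0.971). Epha7 ran closest to Xrcc1 (r = 0.966), a scaffold of DNA repair, and Adgra3 (r = 0.935), and Efna1 to Ctsh (r = 0.935), cathepsin H, and Ltbp4 (r = 0.930). Epha4 had Cnot3 (r = 0.926) and Eloa (r = 0.914), and for Epha2 the measure rests on the 1 array off the floor.

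**Figure D5:**
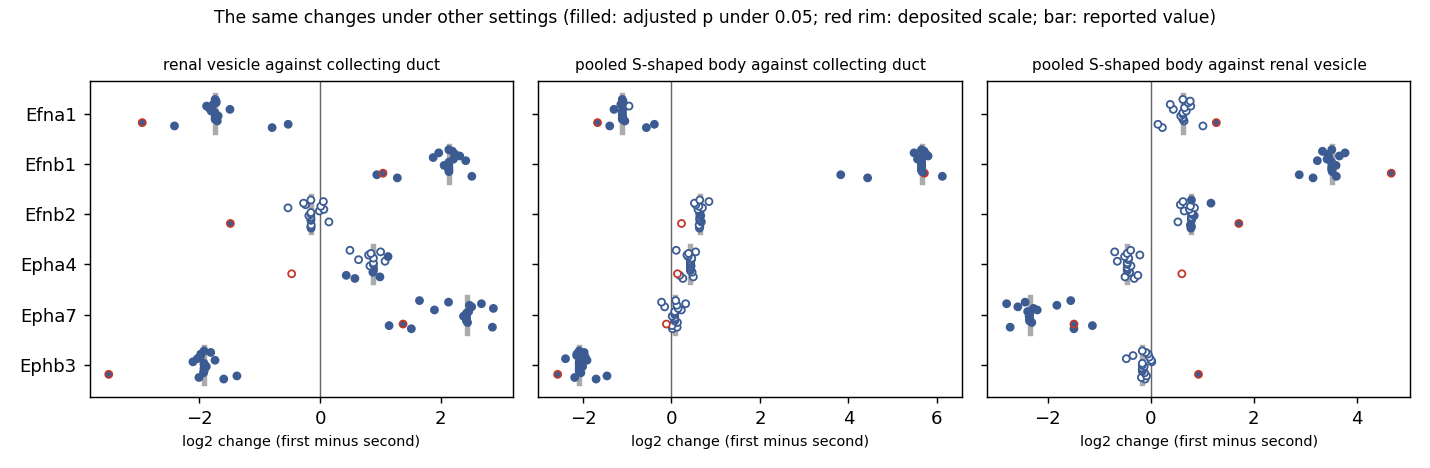
Log2 change (x axis) of each tested member in 3 comparisons under every alternative setting (points; filled where the adjusted p was under 0.05, red rim for the deposited scale) beside the reported value (bar). Efnb1 stays above 0 in all 3, Ephb3 below 0 against collecting duct, and Efnb2 and Epha4 spread across 0 in renal vesicles against collecting duct.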

How the data were processed

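RNA was amplified over 2 rounds with T7 polymerase and put on MG_U74Av2 arrays, as the labels' protocols say. The authors deposited 1 column of linear intensity values per array, which include negative values. GCOS is named in the submitters' processing notes; how values were summarised, background-corrected or scaled is not given in the sources used here, and the array medians differ by a factor of up to 17.8. After 66 control probe sets were removed, the 12 arrays were quantile normalized, negative values became 0, and log2 was taken after adding a pseudocount of 7.22, which is 25% of the overall median. A fit left out probe sets whose mean fell under the 25th percentile. The 9316 others went into limma 3.58.1 (R 4.3.3), with empirical Bayes and a mean-variance trend, two-sided tests and Benjamini-Hochberg adjustment, with pooled S-shaped bodies, renal vesicles and collecting duct on 9 arrays and each comparison of single S-shaped bodies on 6. Background on an array is the distance by which its lowest 5% of deposited values lie below 0. "At least N-fold" sets the brighter group against that level, where the dimmer group did not exceed it on any array. Symbols came from the platform annotation (10833 probe sets with 1 symbol, 396 with several, 1193 with none), and a gene stands for its brightest probe set with 1 symbol unless another is named. The members, lists and tests were chosen with earlier results of these data known. All members, the 2 genes most like each, further family genes, the genes of the nephron epithelium list, and up to 2 called genes per list and comparison were named. The results of 1 further list are not reported here. The fit was also run on simulated data, drawn with normal noise and without the floor of these data. That outcome is not reported here and is no check of the calls. Alternatives were other pseudocounts, scalings, filters, empirical Bayes without trend, array weights, other sets of arrays, a block on replicate number, averaging a gene's probe sets, and leaving out each array.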

Additional observations from a re-analysis of the deposited data

How the results depend on the processing

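Efnb1 (against collecting duct and against renal vesicles), Epha7 (renal vesicles against collecting duct, pooled S-shaped bodies against renal vesicles), Ephb3 and Efna1 (renal vesicles against collecting duct) and Ephb3 (pooled S-shaped bodies against collecting duct) kept direction and call in every alternative run. The deposited scale shifts the median of all probe sets, by -1.39 for renal vesicles against collecting duct, -0.47 and 0.95 for pooled S-shaped bodies against collecting duct and renal vesicles, -2.20 for single against pooled S-shaped bodies, and, with single S-shaped bodies first, -1.06 against renal vesicles and -2.56 against collecting duct. In that order it called 7254, 3955, 5436, 8298, 4300 and 8259 probe sets (quantile normalization 2213, 3583, 3422, 37, 2512 and 3127), with 3.3%, 25%, 93.9%, 0.2%, 4.9% and 2.4% of calls higher (quantile normalization 51.5%, 47.8%, 47.8%, 62.2%, 46.4% and 47.3%). On it the log2 change turned to -0.47 for Epha4, -0.55 for Efna4 and -1.46 for Efnb3 (renal vesicles against collecting duct), -0.11 for Epha7 (pooled S-shaped bodies against collecting duct), and 0.61 for Epha4 and 0.93 for Ephb3 (pooled S-shaped bodies against renal vesicles, 5 members called). It turned to -1.97 for Efnb1, -1.70 for Efnb2, -1.50 for Epha4 and -0.96 for Epha7 in single against pooled S-shaped bodies, with 6 members called. For single S-shaped bodies it turned to -1.47 for Efnb2, -1.36 for Epha4 and -1.07 for Epha7 against collecting duct and to -0.89 for Epha4 against renal vesicles. Scaling to the 75th percentile turned Efnb2 in renal vesicles against collecting duct to 0.15, and called 141 probe sets in single against pooled S-shaped bodies, 80.1% of them higher; with all 12 arrays in the fit 426 were called, and 1 member. Whether replicate numbers pair the samples is not given in the sources used here. Deviations of same-numbered arrays from their group means correlated at -0.09 to 0.05, which alone cannot settle it. With the replicate number as a block, 1372 probe sets were called in renal vesicles against collecting duct, and 848 (2 members) for single S-shaped bodies against renal vesicles, where Epha7 (adjusted p = 0.322) and Ephb3 (adjusted p = 0.0595) lost their calls, Ephb3 in pooled S-shaped bodies against renal vesicles was 0.023, the calls of Epha4 in renal vesicles against collecting duct (adjusted p = 0.0641) and of Efnb2 in pooled S-shaped bodies against renal vesicles (adjusted p = 0.0651) were lost, and Efnb2 in pooled S-shaped bodies against collecting duct was called (adjusted p = 0.032); no other member call changed. Single S-shaped bodies share fewer than 2 numbers with the pools or the ducts, so those comparisons have no such fit. In single S-shaped bodies against renal vesicles, 1 member was called with no filter and 2 without the trend, and the mean over probe sets turned Epha4 to -0.12. Leaving out 1 array gave -0.53 to 0.063 for Efnb2 and -0.061 to 0.242 for Efnb3 in renal vesicles against collecting duct, -0.22 to 0.32 for Epha7 in pooled S-shaped bodies against collecting duct, -0.47 to 0.013 for Ephb3 in pooled S-shaped bodies against renal vesicles and -0.13 to 0.75 for Epha4 in single S-shaped bodies against renal vesicles. It gave 1 to 62 probe sets called in single against pooled S-shaped bodies, and 1521 to 2332 in single S-shaped bodies against renal vesicles with 1 to 3 members. The causes of these changes were not tested. With 3 arrays per group and no scan dates or slides in the sources used here, no batch could be fitted, and genes under background have no measured order.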
